A study of Mus musculus with 6 samples.

Results

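The G2/M and mitosis genes are 44 genes whose products take a cell from the end of DNA replication through division. They were chosen by symbol from the 13564 genes of the deposited table of normalized signal, and all 44 were found there. The RNA came from the progeny of naive CD4 T cells (CD4_N cells) of 3 Foxo1TKO and 3 Foxo1Ctrl mouse cultures. Foxo1TKO mice carry CD4cre and Foxo1 fl/fl alleles, so the gene for the transcription factor Foxo1 is deleted from the CD4+CD8+ stage in the thymus onward, in the CD8 lineage as well. Foxo1Ctrl mice carry the same Foxo1 fl/fl alleles without Cre. Mice of both genotypes are on a C57BL/6 background with a Foxp3-GFP reporter and are young adults per the study's methods. The sorted cells of both genotypes were activated for 4 days with soluble anti-CD3 antibody at 0.1 µg/ml and 250000 splenocytes of CD3εKO mice, which lack T cells. The labels give 50000 CD4_N cells per culture and the methods another number, and a removal of the splenocytes ahead of RNA extraction is mentioned in neither. Nothing in the labels says that the 3 samples of a genotype came from separate animals, so the p-values measure the spread between these samples, which may be technical.

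Naive T cells rest outside the cell cycle, and activation drives them into rapid division. Entry into mitosis depends on the kinase Cdk1 with cyclins A and B. Its inhibitory phosphates are added by Wee1 and removed by the Cdc25 phosphatases. Many G2/M genes are transcribed late in the cycle through a promoter element named the cell cycle genes homology region (CHR), where the MuvB core binds with repressor partners in resting cells and with B-Myb and Foxm1 in dividing cells, often beside CCAAT boxes that bind NF-Y. The amount of such RNA in a bulk sample depends on how many cells are in or near G2/M and on how much RNA each of them holds, and these cannot be told apart here.

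A promoter element common among the members and among other mitotic genes is shown here because the rule for members did not use sequence. A promoter window, from 250 bases before to 50 bases after the start site in RefSeq (GRCm38.p6), was found for 37 of the 44 members, in 39 windows. Ccna2, Kif20a, Foxm1, Cdc25c, Tpx2, Aurkb and Smc4 had no window. The 6 stretches shown run 5′ to 3′ from 120 bases before to the 30th base from the start site, and their capitals mark the CHR (TTTGAA or TTCGAA), a CHR-like element (TTTAAA) and the CCAAT box, on either strand. Cdk1 and Top2a are members higher in Foxo1TKO, Cdc25b is the member that fell most, and Ccnb1, Ccnb2 and Cdc20 stand for the members past no threshold.
Cdk1: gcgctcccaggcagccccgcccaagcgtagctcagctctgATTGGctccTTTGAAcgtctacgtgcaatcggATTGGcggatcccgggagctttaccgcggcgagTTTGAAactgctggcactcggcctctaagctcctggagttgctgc
Top2a: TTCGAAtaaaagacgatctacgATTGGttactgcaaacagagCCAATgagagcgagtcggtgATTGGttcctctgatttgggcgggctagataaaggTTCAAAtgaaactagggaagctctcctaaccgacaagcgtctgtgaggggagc
Cdc25b: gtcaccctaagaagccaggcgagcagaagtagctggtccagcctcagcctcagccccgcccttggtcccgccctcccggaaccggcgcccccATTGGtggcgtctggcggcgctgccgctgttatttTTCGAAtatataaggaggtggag
Ccnb1: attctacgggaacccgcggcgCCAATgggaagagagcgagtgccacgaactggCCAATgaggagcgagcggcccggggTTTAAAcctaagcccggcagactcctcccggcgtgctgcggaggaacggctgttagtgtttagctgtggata
Ccnb2: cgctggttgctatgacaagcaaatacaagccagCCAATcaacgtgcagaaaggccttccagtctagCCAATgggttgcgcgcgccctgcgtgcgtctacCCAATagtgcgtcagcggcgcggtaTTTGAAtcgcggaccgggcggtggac
Cdc20: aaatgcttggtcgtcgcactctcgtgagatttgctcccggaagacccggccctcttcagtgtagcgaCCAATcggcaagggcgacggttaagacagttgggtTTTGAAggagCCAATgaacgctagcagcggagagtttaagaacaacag

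In GRCm38 these stretches lie at chr10:69352883-69353032 (Cdk1, minus strand), chr11:99024160-99024309 (Top2a, minus), chr2:131186828-131186977 (Cdc25b, plus), chr13:100786457-100786606 (Ccnb1, minus), chr9:70421525-70421674 (Ccnb2, minus) and chr4:118437314-118437463 (Cdc20, minus). A CHR stood in 31 of the 39 member windows (79.5%), beside 19.2% of all 32851 windows in the table and 14.7% of the windows of genes tested here. In 28 member windows (71.8%) a CHR was centred within 50 bases of the start site, beside 3.95% of the windows of tested genes. The match nearest the start site began at -15 in Cdk1, at -23 in Top2a, at -18 in Cdc20, at 5 in Ccnb2 and at 8 in Cdc25b, counted from the start site as 1 with no 0. The printed stretch of Ccnb1 holds no CHR but the CHR-like TTTAAA, at -42. The CHR-like element stood in 23.1% of member windows, 13.2% of all windows and 9.46% of the windows of tested genes.

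A CCAAT box stood in 30 of the 39 member windows (76.9%), beside 37.4% of all windows and 38.3% of the windows of tested genes. A CHR and a CCAAT box stood together in 27 member windows (69.2%), beside 7.52% of all windows and 6.18% of the windows of tested genes. Ccnb2 has 3 CCAAT boxes in the printed stretch, at -87, -54 and -21. Mitotic genes outside the members carried these elements too. The 82 windows of a list of other mitotic genes held a CHR in 56.1% and a CCAAT box in 68.3%. The 44 windows of a list of G1/S and DNA replication genes held a CHR in 20.5% and a CCAAT box in 54.5%. The E2F site (TTTGGCGC, TTTCCCGC, TTTCGCGC or TTTGCCGC) stood in 34.1% of the G1/S windows and in 3 of the 39 member windows (7.69%), those of Cdk1, Ncapd2 and Ncapg. It stood in 2.26% of all windows and 4.02% of the windows of tested genes. A forkhead site (GTAAACA) stood in 3 member windows, those of Ect2, Knl1 and Nuf2, in 3.65% of all windows and in 2.65% of the windows of tested genes. Members with a CHR and a CCAAT box were found among those that rose (Cdk1, Bub1b and Top2a), the one that fell most (Cdc25b) and those that passed no threshold, while the windows of Ncaph and Cks2, which rose, held no CHR.

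**Figure D1:**
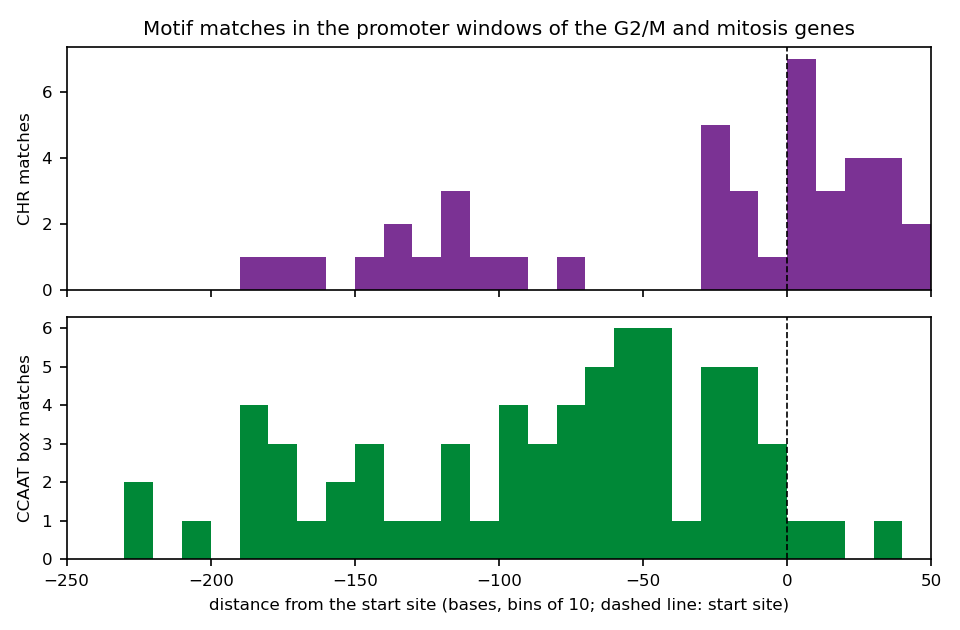
Histograms of the first base of each CHR match (top) and each CCAAT box match (bottom) against distance from the start site in bases, over the 39 promoter windows of the members, in bins of 10 bases. The CHR matches gather on either side of the start site, while the CCAAT boxes lie mostly upstream of it.

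Foxo1 itself, the targeted gene, was measured first. Its level was 86.6, 129.5 and 90.6 normalized CPM (counts scaled to a common library size by TMM in edgeR) in Foxo1Ctrl replicates 1, 2 and 3 and 4.84, 2.64 and 6.51 CPM in Foxo1TKO replicates 1, 2 and 3. The genotypes did not overlap, and the difference was 22.0-fold (log2 fold change -4.46 ± 0.36 SE, edgeR adjusted p = 0.000195). Expected counts summed to between 14783890 and 19675447 per library. The smallest member count was 6 in a library, for Espl1, and 38 of the 44 members had at least 100 counts in every library.

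Most of the mitotic genes did not differ past the test in the absence of Foxo1. Of the 44 members, 5 rose in Foxo1TKO cells, 2 fell and 37 did not pass the test (edgeR quasi-likelihood test, adjusted p under 0.05 over 13691 genes). Cdk1, Cks2, Bub1b, Top2a and Ncaph rose by 1.70-fold to 2.33-fold, Cdc25b fell 10.4-fold and Smc4 fell 2.82-fold. Over all genes tested 24.2% passed, 11.8% higher and 12.4% lower, so that the 15.9% of members that passed lay below the background, the 11.4% that rose close to it and the 4.55% that fell below it. All 7 also changed by more than 1.5-fold. Both thresholds together were passed by 15.9% of the members and 23.0% of all genes tested. Among the 44 members, 16 had an unadjusted p under 0.05 in edgeR, and DESeq2 called 11 and limma-voom 8. Over all 13691 genes tested these counts were 5014, 4045 and 3397. The counts of this kind by role and list below are to be read beside them. Values per library are given in CPM, for replicates 1, 2 and 3 of Foxo1Ctrl and then of Foxo1TKO.

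The signs leaned one way. The log2 fold change was positive in 34 members and negative in 10, with a median of 0.42 beside 0.01 over all genes tested. In 12 members every Foxo1TKO library lay above every Foxo1Ctrl library and in 3 every one lay below, which is 27.3% and 6.82% of the members. Over all genes tested these shares were 21.5% and 21.2%.

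**Figure D2:**
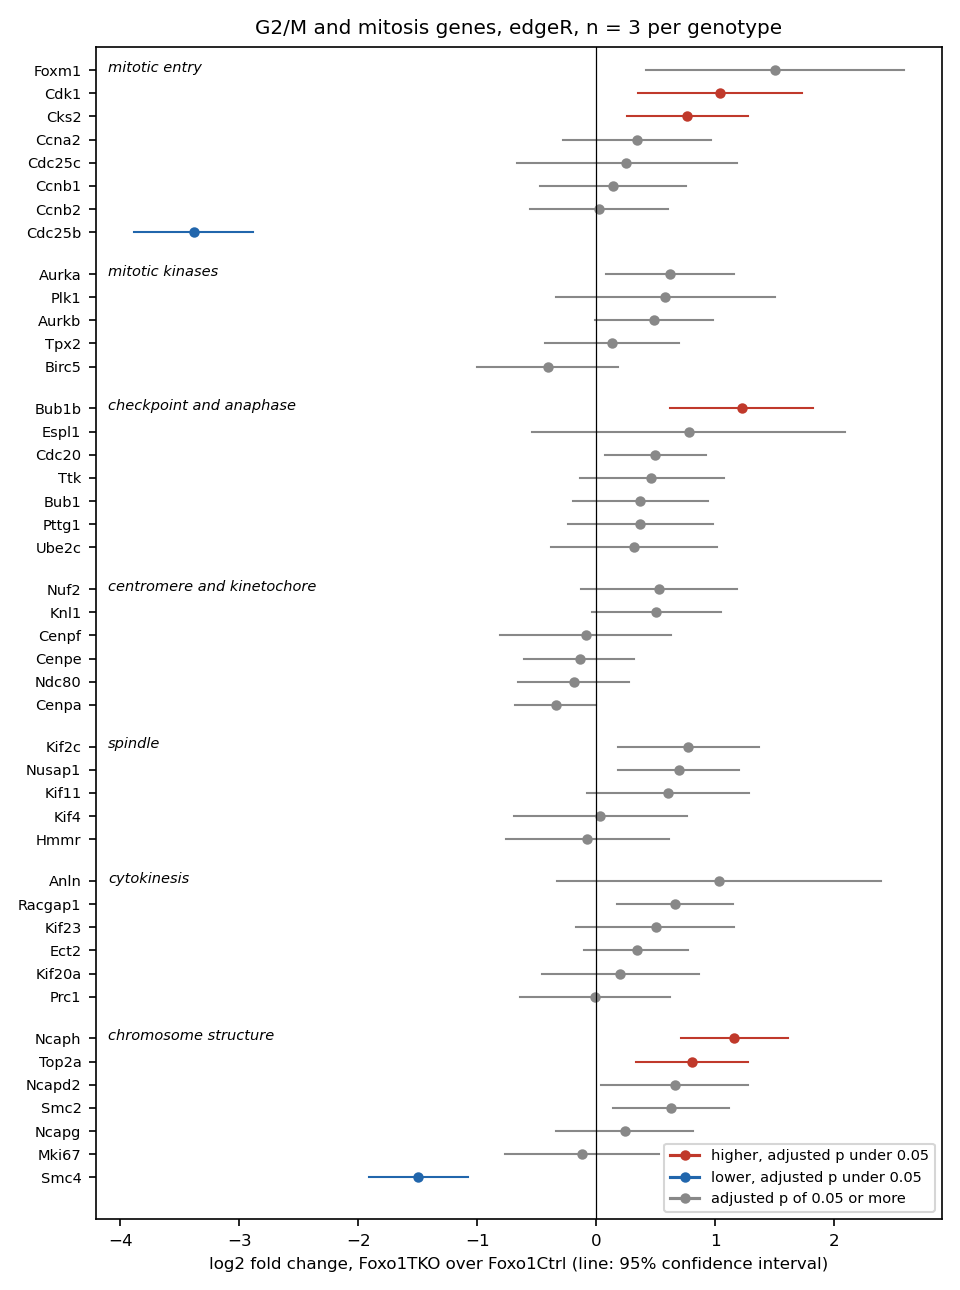
Log2 fold change of each member, Foxo1TKO over Foxo1Ctrl, with a 95% confidence interval derived from the edgeR test, grouped by role and coloured by the test. Cdc25b at -3.38 and Smc4 at -1.5 stand far to the left of the other members, which lie between -0.41 and 1.5.

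Among the 8 genes of mitotic entry, 2 rose, 1 fell and 5 did not pass. Cdk1, the kinase that triggers mitosis (chr10:69335146-69352938), was at 11.5, 17.6 and 8.02 CPM in Foxo1Ctrl and 26.2, 28.8 and 21.1 CPM in Foxo1TKO. The genotypes did not overlap, and the level was 2.06-fold higher (log2 fold change 1.04 ± 0.30 SE, edgeR adjusted p = 0.039). Cks2, a small protein that binds Cdk1 (chr13:51645232-51650660), was at 16.8, 26.1 and 18.4 CPM and then 38.9, 31.0 and 33.9 CPM, again without overlap (log2 fold change 0.76 ± 0.22 SE, adjusted p = 0.0381). Cdc25b, a phosphatase that activates Cdk1 (chr2:131186949-131198497), was at 61.8, 51.2 and 47.6 CPM in Foxo1Ctrl and only 5.99, 4.23 and 5.17 CPM in Foxo1TKO. All 3 Foxo1TKO libraries lay far below the controls (log2 fold change -3.38 ± 0.22 SE, adjusted p = 8.69e-05). An exon of Spef1 overlaps Cdc25b on the other strand, and whether the counting used strand is not given in the sources used here. Exons on the other strand also overlap Ccna2, Cdc25c, Plk1, Cdc20, Ube2c, Kif4, Nusap1, Kif20a, Prc1 and Ncapg among the members, and exons on the same strand overlap Foxm1, Top2a and Ncapd2.

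The mitotic cyclins showed no difference past the test. Ccnb1, cyclin B1, was at 34.9, 58.7 and 37.7 CPM in Foxo1Ctrl and 53.2, 56.0 and 35.1 CPM in Foxo1TKO, with full overlap and an interval of the log2 fold change from -0.47 to 0.75. Ccnb2, cyclin B2, had a log2 fold change of 0.02 with an interval from -0.56 to 0.60. Ccna2, cyclin A2, was at 17.2, 18.3 and 16.5 CPM in Foxo1Ctrl and at 28.2, 23.8 and 13.9 CPM in Foxo1TKO, where replicate 3 lay below every control. The ratio of Cdk1 to Ccnb1, in TPM, which corrects for gene length, was 0.607, 0.474 and 0.41 in the Foxo1Ctrl libraries and 1.07, 0.898 and 1.02 in the Foxo1TKO libraries. For these 2 partners of the same complex the ratio did not overlap between the genotypes, and Cdk1 alone of them passed the test.

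Foxm1, the transcription factor that activates G2/M genes, was low, at 1.15, 0.454 and 0.934 CPM in Foxo1Ctrl and 3.45, 1.99 and 1.76 CPM in Foxo1TKO. Its log2 fold change of 1.5 ± 0.47 SE, the highest of the members, fell just outside the test at an edgeR adjusted p of 0.0509. Exons of 2 other genes, Tex52 and Gm44596, overlap Foxm1 on the same strand. Cdc25c, the other Cdc25 phosphatase among the members, had an interval from -0.67 to 1.18. The TPM ratio of Cdc25b to Cdc25c was 8.38, 4.00 and 9.74 in the Foxo1Ctrl libraries and 0.662, 0.368 and 0.656 in the Foxo1TKO libraries, so that the more abundant of the pair differed between the genotypes.

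Outside the members, Wee1, the kinase that restrains Cdk1, rose from 4.46, 4.28 and 4.06 CPM to 11.3, 12.2 and 10.3 CPM (log2 fold change 1.40 ± 0.22 SE, edgeR adjusted p = 0.0031). Cdc25a and Pkmyt1, another phosphatase and another inhibitory kinase of Cdk1, were picked after their values were seen. Cdc25a was at 23.3, 11.5 and 20.9 CPM in Foxo1Ctrl and 36.7, 25.6 and 24.6 CPM in Foxo1TKO (log2 fold change 0.64 ± 0.30 SE, adjusted p = 0.162). Pkmyt1 had a log2 fold change of 0.79 ± 0.56 SE (adjusted p = 0.352).

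None of the 5 mitotic kinase genes and their partners passed in edgeR, DESeq2 or limma-voom, and 1 of them, Aurka, had an unadjusted p under 0.05. Plk1, polo-like kinase 1, was at 12.9, 6.87 and 14.3 CPM in Foxo1Ctrl and 26.2, 14.1 and 10.7 CPM in Foxo1TKO, and the groups overlapped. Aurkb, the kinase of the chromosomal passenger complex, was at 15.3, 13.4 and 11.8 CPM and then 21.4, 20.1 and 15.1 CPM, overlapping at the edge. Birc5, survivin, its partner in that complex, was at 76.2, 130.0 and 66.1 CPM in Foxo1Ctrl and 73.3, 68.8 and 63.3 CPM in Foxo1TKO. The log2 fold change of Birc5, -0.41 ± 0.26 SE, rested on the high value of Foxo1Ctrl replicate 2 and was -0.04 without that library. Aurka, the spindle pole kinase, did not overlap between the genotypes, with a log2 fold change of 0.62 ± 0.23 SE (adjusted p = 0.0931), and Tpx2, which activates Aurka, had an interval from -0.43 to 0.69.

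All 7 genes of the spindle checkpoint and anaphase had a positive log2 fold change, from 0.32 to 1.22, and 1 of them passed. Bub1b, the checkpoint kinase BubR1 (chr2:118598211-118641591), was at 11.96, 9.66 and 8.57 CPM in Foxo1Ctrl and 29.7, 23.5 and 16.9 CPM in Foxo1TKO. The lowest Foxo1TKO library lay above the highest control (log2 fold change 1.22 ± 0.26 SE, edgeR adjusted p = 0.0126). Cdc20, the activator of the anaphase-promoting complex that BubR1 inhibits, was at 43.5, 55.1 and 44.7 CPM and then 74.0, 73.6 and 54.4 CPM (adjusted p = 0.0922). Ube2c, the ubiquitin-conjugating enzyme of that complex, overlapped, at 11.5, 11.3 and 8.95 CPM and then 18.2, 12.8 and 8.46 CPM. Pttg1 (securin), Espl1 (separase), Bub1 and Ttk did not pass, with log2 fold changes of 0.37, 0.78, 0.37 and 0.46.

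The 6 centromere and kinetochore genes held the lowest median of the roles, -0.12. None passed in edgeR, DESeq2 or limma-voom, and 1 had an unadjusted p under 0.05. Cenpa, the histone H3 variant that marks centromeres, was at 195.6, 229.7 and 203.5 CPM in Foxo1Ctrl and 181.4, 166.7 and 148.9 CPM in Foxo1TKO. The groups did not overlap, but the difference was small (log2 fold change -0.34 ± 0.15 SE, edgeR adjusted p = 0.134). Cenpf was at 18.8, 30.4 and 14.9 CPM and then 20.1, 25.3 and 14.8 CPM, and Ndc80, the outer kinetochore subunit that grips microtubules, at 41.8, 58.5 and 39.4 CPM and then 39.8, 45.6 and 36.8 CPM. In both of these genes the highest value of all was that of Foxo1Ctrl replicate 2. Nuf2, the partner of Ndc80, and Knl1, the checkpoint platform of the kinetochore, had positive log2 fold changes of 0.53 and 0.50, with intervals from -0.13 to 1.18 and from -0.04 to 1.05. The interval of the kinetochore motor Cenpe ran from -0.61 to 0.32.

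None of the 5 spindle genes passed in edgeR, where 2 had an unadjusted p under 0.05. DESeq2 called 2 and limma-voom 1. Kif11, the motor that separates the spindle poles, was at 25.8, 40.4 and 23.2 CPM in Foxo1Ctrl and 56.7, 48.3 and 30.6 CPM in Foxo1TKO, with overlap. Nusap1, a microtubule-binding protein of the spindle, was at 18.5, 28.4 and 18.0 CPM and then 37.4, 35.1 and 32.2 CPM, without overlap, and lay just outside the test (log2 fold change 0.69 ± 0.22 SE, edgeR adjusted p = 0.0564). An exon of Oip5 overlaps Nusap1 on the other strand. Kif2c, a microtubule depolymerase of the centromere, also kept its genotypes apart, by the margin between 16.9 CPM in Foxo1Ctrl and 17.0 CPM in Foxo1TKO (adjusted p = 0.0634). Kif4 and Hmmr had log2 fold changes of 0.03 and -0.08.

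None of the 6 cytokinesis genes passed in edgeR, where 1 had an unadjusted p under 0.05. DESeq2 called 1 and limma-voom 0. Kif23, a subunit of the centralspindlin complex, was at 8.85, 9.07 and 7.41 CPM in Foxo1Ctrl and 15.9, 12.04 and 7.85 CPM in Foxo1TKO. Racgap1, the other subunit of that complex, did not overlap and had a log2 fold change of 0.66 ± 0.21 SE (edgeR adjusted p = 0.0578). Prc1, which bundles the microtubules of the midzone, was level, at 15.9, 22.1 and 12.7 CPM and then 16.6, 20.7 and 13.02 CPM (log2 fold change -0.01, interval from -0.64 to 0.62). Ect2, the exchange factor that activates RhoA at the cleavage site, did not overlap but had a log2 fold change of only 0.34 ± 0.19 SE (adjusted p = 0.244). The furrow protein Anln varied most within the genotypes, from 0.989 to 2.97 CPM in Foxo1Ctrl and from 1.46 to 6.37 CPM in Foxo1TKO, and the interval of the midzone motor Kif20a ran from -0.46 to 0.86.

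Of the 7 genes of chromosome structure, 2 rose and 1 fell, and Smc4 and Ncaph, which belong to the same complex, went in opposite directions. Condensin I compacts mitotic chromosomes and consists of the ATPases Smc2 and Smc4 with Ncaph, Ncapg and Ncapd2. Smc4 (chr3:69004738-69034623) was at 1332.5, 1572.7 and 1347.5 CPM in Foxo1Ctrl and 408.0, 509.0 and 591.5 CPM in Foxo1TKO. It fell without overlap, with a log2 fold change of -1.5 ± 0.18 SE (edgeR adjusted p = 0.00115). Ncaph (chr2:127103809-127133954), the subunit that closes the condensin ring, rose from 15.3, 13.3 and 14.9 CPM to 37.6, 33.5 and 26.4 CPM (log2 fold change 1.16 ± 0.20 SE, adjusted p = 0.00471). Smc2, the partner of Smc4, was at 50.1, 84.7 and 57.8 CPM in Foxo1Ctrl and 95.9, 106.2 and 95.1 CPM in Foxo1TKO. Each Foxo1TKO library lay above each control, yet Smc2 did not pass (log2 fold change 0.63 ± 0.21 SE, adjusted p = 0.0664). Ncapd2 and Ncapg had log2 fold changes of 0.66 and 0.24 and did not pass.

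Measured per length, Smc4 exceeded Smc2 24.0-fold, 14.2-fold and 20.5-fold in the Foxo1Ctrl libraries and 3.91-fold, 4.23-fold and 5.04-fold in the Foxo1TKO libraries (TPM ratios). The 2 ATPases pair one to one in the protein complex, and their RNAs were unequal in every library. The TPM ratios of Ncaph, Ncapg and Ncapd2 to Smc2 overlapped between the genotypes. They were 0.0995 to 0.199, 0.113 to 0.143 and 0.267 to 0.4 in Foxo1Ctrl. In Foxo1TKO they were 0.182 to 0.242, 0.085 to 0.116 and 0.259 to 0.386. Smc4 alone made up between 45.1% and 50.0% of the summed CPM of the members in Foxo1Ctrl and between 17.9% and 27.9% in Foxo1TKO. The summed CPM of the members was therefore lower in Foxo1TKO, at 2116.9 to 2402.8 against 2693.5 to 3487.9 CPM. Without Smc4 the sums were 1525.4 to 1893.9 CPM in Foxo1TKO and 1346.0 to 1915.2 CPM in Foxo1Ctrl, and they overlapped.

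Top2a, the topoisomerase that untangles sister chromatids (chr11:98992943-99024189), rose from 62.6, 96.6 and 62.7 CPM to 130.0, 138.1 and 118.5 CPM. Its genotypes did not overlap (log2 fold change 0.80 ± 0.20 SE, edgeR adjusted p = 0.0246). Mki67, which encodes the proliferation marker Ki-67 that coats mitotic chromosomes, was at 60.1, 105.8 and 50.5 CPM in Foxo1Ctrl and 64.1, 77.4 and 57.7 CPM in Foxo1TKO. Its groups overlapped fully, with a log2 fold change of -0.12 and an interval from -0.77 to 0.53. The plot of levels by library shows the 7 members that passed beside Smc2, Foxm1, Ccnb1, Mki67 and Cenpa.

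**Figure D3:**
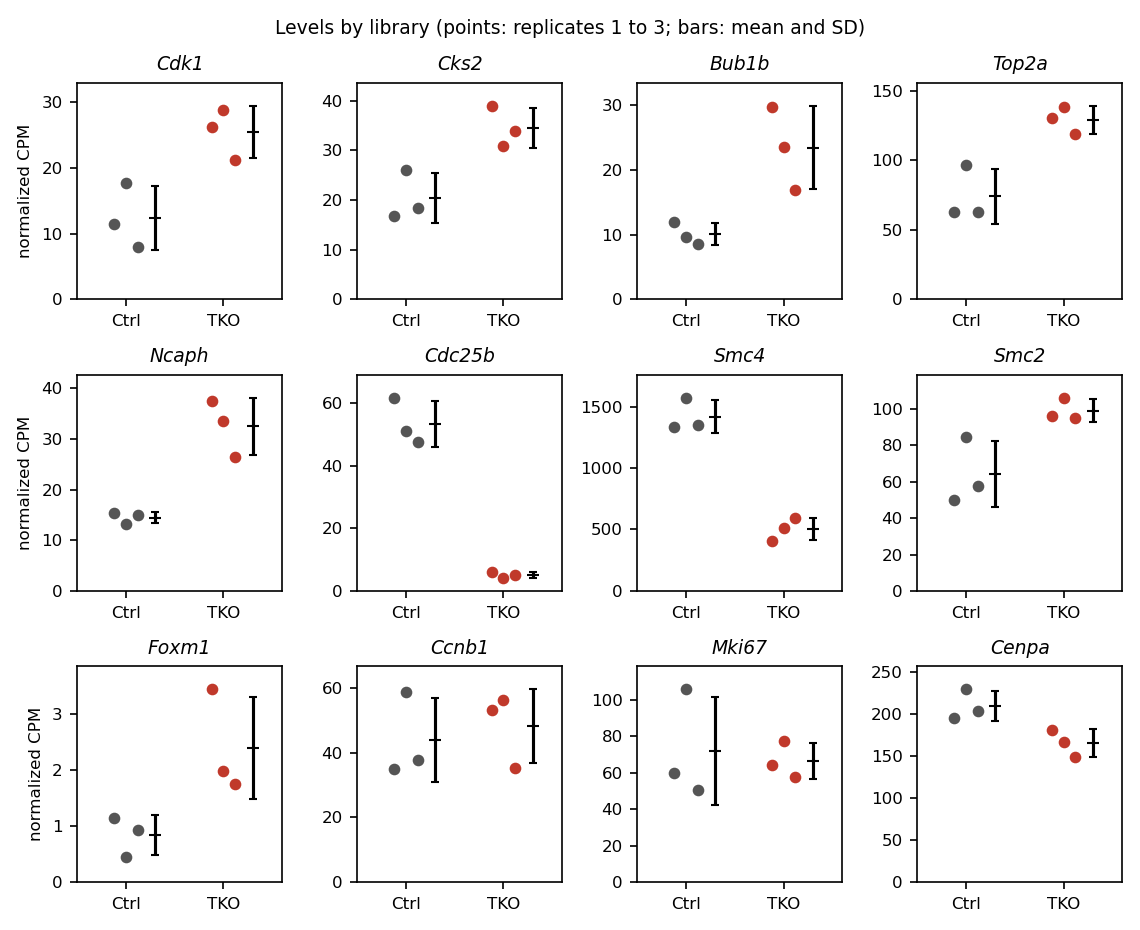
Normalized CPM of 12 members in each library, on linear axes that start at 0, with points for replicates 1 to 3 of each genotype and bars for the mean and SD (n = 3). In Cdk1, Cks2, Bub1b, Top2a, Ncaph, Cdc25b and Smc4 the points of the genotypes stay apart, whereas in Ccnb1 and Mki67 they overlap.

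Per length, the members differed widely in level. Smc4 was highest in Foxo1Ctrl cells, at 880.8 ± 75.7 TPM (SD, n = 3). It was followed by Pttg1 at 258.9 ± 45.0 TPM and Cenpa at 243.9 ± 9.70 TPM, which differed by less than their spread, as did Birc5 at 126.0 ± 33.3 TPM and Ccnb2 at 118.4 ± 25.6 TPM. Foxm1 was lowest, at 0.220 ± 0.108 TPM. In Foxo1TKO cells Smc4 was at 320.2 ± 9.92 TPM and Pttg1 at 358.7 ± 69.0 TPM, again within their spread.

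The libraries of a genotype differed from each other in these genes. Among the controls, Foxo1Ctrl replicate 2 was the highest in 32 of the 44 members (72.7%), against 39.6% of all genes tested. Foxo1TKO replicate 3 was the lowest of its genotype in 39 members (88.6%), against 37.3% of all genes. The median deviation of the members from their own mean over the 6 libraries was -0.27, 0.08 and -0.34 in Foxo1Ctrl and 0.32, 0.31 and -0.14 in Foxo1TKO, in log2(CPM + 1). Foxo1TKO replicate 3 thus lay between the controls in these genes, although the first principal component of all genes (67.4% of the variance) kept it with its genotype. Foxo1Ctrl replicate 2 and Foxo1TKO replicate 3 lay at the same end of the second component (21% of the variance).

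**Figure D4:**
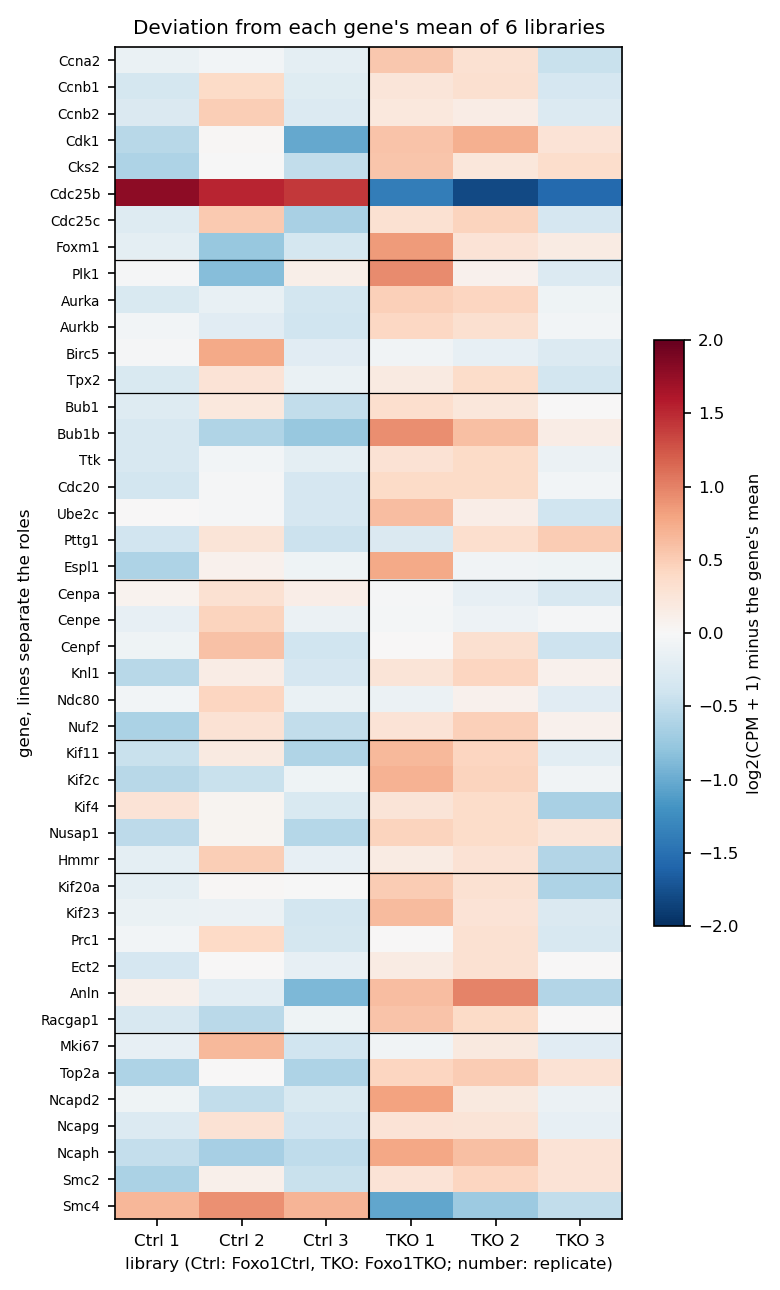
Heat map of log2(CPM + 1) minus each gene's mean over the 6 libraries, for the 44 members (rows, grouped by role) in each library (columns), from blue for lower to red for higher. Cdc25b and Smc4 are red in the Foxo1Ctrl columns and blue in the Foxo1TKO columns, and Foxo1TKO replicate 3 is the palest or bluest Foxo1TKO column in most other rows.

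The number of genes that rose moved with single libraries, in the members and over all genes tested. With all libraries, 5 members and 1613 genes in all rose. Without Foxo1Ctrl replicate 2, 10 members and 1877 genes in all rose, and without Foxo1TKO replicate 3, 5 members and 1132 genes. Without Foxo1Ctrl replicate 1, Foxo1Ctrl replicate 3, Foxo1TKO replicate 1 or Foxo1TKO replicate 2, 2, 1, 2 and 1 members rose, beside 942, 1148, 1293 and 874 genes in all. Cdc25b, Smc4 and Ncaph passed with each of the 6 libraries left out (highest edgeR adjusted p of 0.00134, 0.0111 and 0.028). Bub1b lost its call without Foxo1Ctrl replicate 3 or Foxo1TKO replicate 2, with an adjusted p of up to 0.0515, and Top2a kept it only without Foxo1Ctrl replicate 2 or Foxo1TKO replicate 3 (up to 0.106). Cdk1 and Cks2 kept theirs only without Foxo1Ctrl replicate 2 (up to 0.143 and 0.146).

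Other genes of the cell cycle were read from lists written by role. Over all genes tested 24.2% passed in either direction. The share was 20.9% of the other mitotic genes, 5.88% of the anaphase-promoting complex list and 26.7% of cohesin and condensin II. It was 36.8% of the MuvB, DREAM and E2F group, 59.6% of G1/S and DNA replication and 35.3% of the inhibitors and D cyclins. Over all genes tested 11.8% rose and 12.4% fell. In the same order, those that rose were 19.8%, 5.88% and 6.67% of the first 3 lists. They were 36.8%, 57.4% and 17.6% of the last 3. Of 86 other mitotic genes tested, 17 rose, 1 fell and 68 did not pass, with a median log2 fold change of 0.35. Kif15, a spindle motor that works beside Kif11, rose from 19.7, 38.3 and 25.0 CPM to 198.1, 229.6 and 224.5 CPM (log2 fold change 2.97 ± 0.26 SE, edgeR adjusted p = 0.000262). Fam83d, which targets a kinase to the spindle, rose with a log2 fold change of 1.52 ± 0.26 SE (adjusted p = 0.00526), and Wee1 was the third by size. Kifc1, a minus-end motor, was the gene that fell and is named for that, at 28.2, 15.04 and 29.3 CPM and then 15.7, 7.71 and 7.79 CPM, with overlap (adjusted p = 0.0482). Without Foxo1Ctrl replicate 2 the number that rose was 26, and without Foxo1Ctrl replicate 1, Foxo1Ctrl replicate 3 or Foxo1TKO replicate 2 it was 8, 10 and 9.

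Of 17 genes of the anaphase-promoting complex and its enzymes, 1 rose and none fell in edgeR, where 5 had an unadjusted p under 0.05. DESeq2 called 3 and limma-voom 0. Over all 13691 genes tested, 5014 had an unadjusted p under 0.05, and DESeq2 called 4045 and limma-voom 3397. The gene that rose in edgeR was Ube2s, named after its values were seen, which extends the ubiquitin chains. Its Foxo1TKO values of 5.51, 23.9 and 26.6 CPM overlapped the 4.87, 4.60 and 6.48 CPM of Foxo1Ctrl (adjusted p = 0.0425). An exon of Rpl28, a ribosomal protein gene, overlaps Ube2s on the other strand, so that reads of the pair cannot be told apart if strand was not used. Of 15 genes of cohesin and condensin II, 1 rose and 3 fell, with a median of -0.39. Ncapg2, the condensin II relative of Ncapg, rose from 11.9, 12.3 and 11.5 CPM to 28.3, 22.3 and 14.9 CPM (log2 fold change 0.88 ± 0.25 SE, adjusted p = 0.0399). Stag2, a cohesin subunit, and Nipbl, the cohesin loader, fell, with log2 fold changes of -0.79 ± 0.19 SE and -0.61 ± 0.15 SE (adjusted p = 0.0216 and 0.0248). The third that fell was Esco1, a cohesin acetyltransferase named after its values were seen (log2 fold change -0.56 ± 0.16 SE). No gene of cohesin and condensin II fell in the test without Foxo1Ctrl replicate 1, Foxo1TKO replicate 2 or Foxo1TKO replicate 3, and 1 fell without Foxo1Ctrl replicate 3 or Foxo1TKO replicate 1.

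Of 19 regulators of the MuvB, DREAM and E2F group, 7 rose and none fell, with a median of 0.62, and DESeq2 and limma-voom called 7 each. E2f3, an activator E2F, rose from 3.18, 3.57 and 2.69 CPM to 10.7, 10.99 and 10.1 CPM (log2 fold change 1.75 ± 0.23 SE, edgeR adjusted p = 0.00167). The repressors E2f8 and E2f6 rose with log2 fold changes of 1.73 ± 0.48 SE and 1.42 ± 0.37 SE (adjusted p = 0.0352 and 0.0262). E2f8 was low, at 0.27, 0.843 and 0.604 CPM in Foxo1Ctrl and 2.49, 1.79 and 1.46 CPM in Foxo1TKO. Its smallest count was 4 in a library. Without Foxo1Ctrl replicate 1 or Foxo1TKO replicate 2 the number that rose was 3, and without Foxo1Ctrl replicate 3, Foxo1TKO replicate 1 or Foxo1TKO replicate 3 it was 4.

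The genes of the preceding phases were read beside the mitotic ones. Of 47 genes of G1/S and DNA replication, 27 rose, 1 fell and 19 did not pass, with a median log2 fold change of 0.87 against 0.42 in the members. The difference between the lists was not tested. Ung, which removes uracil from DNA, rose from 6.08, 2.85 and 7.08 CPM to 37.4, 16.8 and 16.4 CPM (log2 fold change 2.14 ± 0.45 SE, edgeR adjusted p = 0.0115). Gins1, of the replicative helicase, and Mcm5, of its ring, rose with log2 fold changes of 1.92 ± 0.38 SE and 1.49 ± 0.32 SE (adjusted p = 0.00908 and 0.0121). Prim2, the large primase subunit, was the gene that fell and is named for that (log2 fold change -0.89 ± 0.16 SE, adjusted p = 0.0061). Without Foxo1Ctrl replicate 1, Foxo1Ctrl replicate 3 or Foxo1TKO replicate 2 the number that rose was 15, 16 and 13.

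Of 17 cell cycle inhibitors, D cyclins and their kinases, 3 rose and 3 fell. Gadd45b, a stress-induced gene, rose from 5.81, 4.73 and 5.71 CPM to 25.6, 22.8 and 28.0 CPM (log2 fold change 2.23 ± 0.20 SE, edgeR adjusted p = 0.000302). Cdk4, the kinase of the D cyclins, rose from 112.9, 106.1 and 138.3 CPM to 356.9, 317.5 and 336.9 CPM (log2 fold change 1.5 ± 0.16 SE, adjusted p = 0.000585). Cdkn1b, which encodes the CDK inhibitor p27 and is a known target of Foxo factors, fell from 77.7, 68.2 and 49.7 CPM to 14.5, 17.1 and 20.1 CPM (log2 fold change -1.92 ± 0.22 SE, adjusted p = 0.000999). The others that passed, named after their values were seen, were Ccnd2, which rose, and Cdkn2d and Btg2, which fell, with log2 fold changes of 0.57, -1.18 and -1.05.

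**Figure D5:**
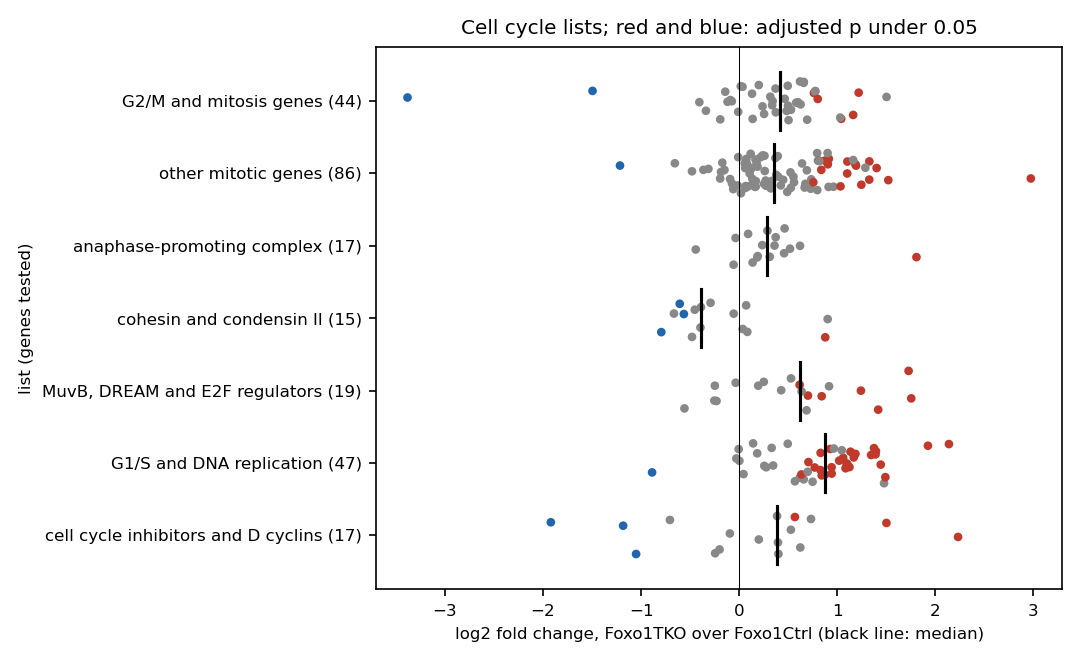
Log2 fold change, Foxo1TKO over Foxo1Ctrl, of each gene tested in the members and the 6 cell cycle lists (rows, with the number of genes tested), with a black line at the median and colour for genes past the test. The medians run from -0.39 in cohesin and condensin II to 0.87 in G1/S and DNA replication, with the members at 0.42.

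T cell markers dominated all libraries. The 12 T cell markers summed to 13796.2 to 14063.1 CPM of the unscaled library total in Foxo1Ctrl and 12181.0 to 12681.5 in Foxo1TKO, and 3 of them passed the test, all lower. Markers of other cells were low but differed. The 10 B cell markers summed to 30.2 to 38.7 in Foxo1Ctrl and 10 to 12.9 in Foxo1TKO, with 5 of the 8 tested lower. The 7 dendritic cell markers summed to 7.77 to 15.3 and then 34.6 to 36.2, with 1 of 3 tested higher. That gene was Itgax, which encodes CD11c and was named after its values were seen. It was at 0.0676, 0.0 and 0.0549 CPM in Foxo1Ctrl and 19.8, 23.3 and 27.5 CPM in Foxo1TKO. Itgax made up most of the Foxo1TKO sum and reached the count filter through the Foxo1TKO libraries alone. The other two had log2 fold changes of 0.45 and -0.48 and did not pass, while Flt3, Batf3, Clec9a and Siglech stayed under 10 counts in every library. The 5 NK cell markers summed to 136.3 to 182.9 and then 68.8 to 107.1, with 1 of 3 tested lower and Klra8 at 0 throughout, and the 5 plasma cell markers to 223.2 to 303.3 and then 163.0 to 229.2, with 2 of 3 tested lower. The 8 macrophage and monocyte markers summed to 3.17 to 6.51 and then 4.83 to 6.42. Sums of the 6 neutrophil markers were 0.0 to 0.203 and then 0.242 to 1.93, and none of these markers reached the test. The 7 erythroid markers summed to 15.6 to 24.4 and then 13.7 to 24.1. Those of the 2 CD8 T cell markers were 8.06 to 9.09 and then 5.15 to 8.39. Of the macrophage, erythroid and CD8 T cell markers, 2, 3 and 1 were tested. None of them passed in edgeR, where 2 had an unadjusted p under 0.05. DESeq2 called 1 of them and limma-voom 0. The part of these cells in the values of the mitotic genes was not tested.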

How the data were processed

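RNA of 3 Foxo1TKO and 3 Foxo1Ctrl cultures was measured by RNA-seq, and genotypes and replicate numbers were taken from the labels. The authors aligned reads with STAR 2.7.6a to Ensembl GRCm38 and estimated gene-level counts with RSEM 1.3.1. The deposited expected counts carry no normalization. Rounding to whole numbers was done here. The deposited TPM and FPKM values come from the same RSEM files, where FPKM was not used for any result. The authors' table of normalized signal, which holds 13564 genes, was made with DESeq2 and defined the members.

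The 13691 genes that reached 10 counts in 3 or more libraries were tested with edgeR 4.0.16 in R 4.3.3 (TMM, glmQLFit and glmQLFTest, genotype as the only term), with Benjamini-Hochberg adjustment over all genes tested. The study used DESeq2's Wald test, run here as an alternative with DESeq2 1.42.0. The edgeR test gives no standard error. SE values were derived here as the absolute log2 fold change divided by the square root of the test's F statistic. The 95% confidence intervals were built from these SE values with the test's degrees of freedom. The scripts were tested on simulated data. Gene positions and exon overlaps came from GENCODE M21 (GRCm38). Promoter windows came from RefSeq, matched by symbol. Figures were drawn with matplotlib 3.10.9.

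All 44 members are accounted for. Values per library are given for 20 members set by role, for the 4 with the highest and the 4 with the lowest log2 fold change, and for others described beside them. Of each list, the 3 genes with the largest change among those past the test without overlap between genotypes are named. The members and lists were chosen with earlier results of these data known. Alternatives were limma-voom and limma on TPM or on the authors' signal as log2(value + 1) (limma 3.58.1), DESeq2 size factors, upper quartile scaling, filterByExpr, no filter, the replicate number as a block, a fold change over 1.5 as well, and each library left out.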

Additional observations from a re-analysis of the deposited data

How the results depend on the processing

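The fall of Cdc25b and Smc4 and the rise of Ncaph, Cdk1 and Bub1b stayed past the test in the 9 other fits of all libraries, in which Cks2 missed it with the replicate block (adjusted p = 0.0505) and Top2a on the authors' normalized signal (0.0559). In these 9 fits 2 members fell and 5 to 9 rose (9 in DESeq2's Wald test, which also called more genes in all, 2017 higher and 2028 lower against 1613 and 1695 in edgeR), and the median log2 fold change of the members lay between 0.35 and 0.43. All 7 members also passed with a fold change over 1.5 asked for as well. Foxm1 passed in 5 of the 9 fits and Nusap1 in 5, Racgap1 and Smc2 in 2 each and Kif2c in 1. DESeq2 called 3 genes of the anaphase-promoting complex and its enzymes higher, limma-voom 0, and limma on the authors' signal, limma on TPM and the replicate block 2 each. TPM also called 1 gene of that list lower and 4 of the MuvB, DREAM and E2F group higher. Of cohesin and condensin II, DESeq2 called 2 higher, limma-voom 0 higher and the authors' signal 1 lower. On the authors' signal and on TPM 0 other mitotic genes fell. The cause of these differences was not tested.

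With each library left out in turn, which leaves fewer samples, 1 to 10 members rose and 2 fell, and the members' median ran from 0.25 to 0.59. Of all genes tested, 874 to 1877 were then higher and 980 to 1727 lower, fewest without Foxo1TKO replicate 2 and most without Foxo1Ctrl replicate 2. Of the lists, 8 to 26 other mitotic genes rose and 0 to 1 fell, 0 to 2 genes of the anaphase-promoting complex rose, 0 to 1 of cohesin and condensin II rose and 0 to 3 fell, 3 to 5 of the MuvB, DREAM and E2F group rose and 13 to 28 of G1/S and DNA replication rose.

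The sign of 13 members that did not pass was not stable. With a library left out their log2 fold changes ran from -0.01 to 0.42 (Ccnb1), -0.13 to 0.34 (Ccnb2), -0.01 to 0.74 (Cdc25c), -0.03 to 0.34 (Tpx2), -0.0049 to 0.55 (Ube2c), -0.26 to 0.10 (Cenpe), -0.29 to 0.27 (Cenpf), -0.30 to 0.02 (Ndc80), -0.15 to 0.30 (Kif4), -0.24 to 0.21 (Hmmr), -0.04 to 0.47 (Kif20a), -0.19 to 0.24 (Prc1) and -0.32 to 0.28 (Mki67). The sign also turned for Ccnb2 with upper quartile scaling (-0.0024), Cenpf on TPM (0.04), Kif4 with the replicate block (-0.02), Hmmr on the authors' signal and TPM (0.02 and 0.06), Prc1 in limma-voom, on the authors' signal and on TPM (0.02, 0.09 and 0.12) and Mki67 on TPM (0.01).

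The replicate numbers are shared by the genotypes, but deviations from the group means correlated at 0.589, 0.344 and -0.268 between same-numbered libraries, so the numbers were not taken to pair the samples. The study compared PD1, TIGIT and cell division in such cultures with paired tests, a pair per experiment. It reported markedly reduced proliferation of the Foxo1-deficient cells, from divisions measured by dilution of a dye. How that relates to the RNA levels here was not tested. Whether the RNA samples were paired by experiment is not given. If they were, the main fit leaves that pairing out. With the replicate block 7 members rose and 2 fell, and 1710 of all genes were higher and 1718 lower. Foxo1TKO replicate 3 correlated best with Foxo1Ctrl replicate 2 (0.489). Depth limits the precision of Foxm1 and Espl1, whose counts fell to 7 and 6 in a library. Outside the members it limits that of E2f8, whose counts fell to 4.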
